A study of Mus musculus with 28 samples.

Results

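The genes of cholesterol and fatty acid synthesis were followed through regulatory T cells (Tregs) of tumor and spleen. A list of 33 genes was taken as named members of the pathways, with earlier results of these data known, and 27 of them had a row among the 13103 genes of the deposited table. Cyp51, Msmo1, Scd1, Scd2, Fads1 and Fads2 were not analysed here. All 27 passed the filter on low values, and 12548 genes were tested in all. By role, 6 belong to the mevalonate pathway, 9 make squalene or lead from it to cholesterol, 5 sense or carry sterols, 5 supply or build fatty acid chains, and 2 elongate them.

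The mice carried the Foxp3-GFP reporter, in which green fluorescent protein marks cells that use the Foxp3 gene of Tregs. All of them, the spleen donors included, bore B16 melanoma grown for 7 to 10 days from 500000 cells placed in the skin, so no group came from a tumor-free mouse. Both tissues were digested, stained for CD45, CD3, CD4 and OX40, and GFP-positive cells were sorted by surface OX40, a costimulatory receptor of the tumor necrosis factor receptor family encoded by Tnfrsf4, into a high and a low gate that the labels call OX40plus and OX40minus. The 4 groups are the OX40plus and OX40minus Tregs of tumors (4 mice each) and of spleens (3 mice each). No sex, age or further treatment is named in the labels.

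Cells make cholesterol from acetyl-CoA through mevalonate, isoprenoid diphosphates, squalene and lanosterol, and they make fatty acids from the same acetyl-CoA through malonyl-CoA. Both routes are switched on by the sterol regulatory element binding proteins (SREBPs): when sterols are scarce, SCAP escorts SREBP from the endoplasmic reticulum to the Golgi, where it is cut and released to the nucleus, and INSIG proteins hold it back when sterols are plentiful. SREBP2 acts mainly on sterol genes and SREBP1 mainly on fatty acid genes, usually beside the factors NF-Y and Sp1, and activated, dividing T cells are known to draw on both routes.

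Levels are in CPM, the count of a gene scaled to a common effective library size, which is described with the processing. Differences are log2 fold changes with their standard error (SE). A gene was called where its Benjamini-Hochberg adjusted p over all tested genes, from limma, was under 0.05. Each sample held between 22400000 and 29600000 estimated counts, and a level of 3 counts corresponded to 0.104 to 0.13 CPM. The defining Treg and T cell genes were detected in every group, and Tnfrsf4 averaged 3357 ± 203 CPM in tumor OX40plus, 1950 ± 152 CPM in tumor OX40minus (SD, n = 4 each), 703.9 ± 111 CPM in spleen OX40plus and 252.8 ± 40.9 CPM in spleen OX40minus Tregs (SD, n = 3 each), and all later means have these n. Among the spleen samples, OX40plus mouse 3 was unlike mice 1 and 2. Its Foxp3 level was 129.7 CPM, against 32.1 and 31.8 CPM in mice 1 and 2. Its level of Apoe, an apolipoprotein gene strongly used by macrophages, was 89.3 CPM, against 33.7 and 37.1 CPM. It held the highest or lowest value of its group for 24 of the 27 genes. Spleen OX40minus mouse 1 also did so for 24 in its own group, and in a group of 3 only 1 mouse per gene holds neither. Results that change without spleen OX40plus mouse 3 are given beside the values, and calls lost without other samples are summed up further below.

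The start regions of 5 genes are shown as examples of genes that differed between the tissues, in either direction, and carry NF-Y boxes. They were picked among genes whose only RefSeq start lies at or before the gene start annotated in GENCODE. Other genes that differed and carry such boxes, Idi1, Hsd17b7 and Sc5d among them, are not shown. Hmgcs1 alone of the 5 also holds the core of a sterol regulatory element. Each is the stretch of 250 bases before the RefSeq transcription start (GRCm38.p6), 5′ to 3′ on the strand of the gene. Capitals mark TCACNCCAC, the core of a sterol regulatory element, and CCAAT, the NF-Y box, on either strand, so that a box on the other strand reads ATTGG. Hmgcs1, Nsdhl and Ebp were higher in tumor Tregs, and Fasn and Mvd were lower.
Hmgcs1 (chr13:119690101-119690350, plus strand): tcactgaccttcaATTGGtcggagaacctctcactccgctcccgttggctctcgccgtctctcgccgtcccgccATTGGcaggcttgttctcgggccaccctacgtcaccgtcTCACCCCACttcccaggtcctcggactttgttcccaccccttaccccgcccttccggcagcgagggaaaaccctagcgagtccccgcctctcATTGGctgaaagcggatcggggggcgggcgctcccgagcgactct
Nsdhl (chrX:72918271-72918520, plus strand): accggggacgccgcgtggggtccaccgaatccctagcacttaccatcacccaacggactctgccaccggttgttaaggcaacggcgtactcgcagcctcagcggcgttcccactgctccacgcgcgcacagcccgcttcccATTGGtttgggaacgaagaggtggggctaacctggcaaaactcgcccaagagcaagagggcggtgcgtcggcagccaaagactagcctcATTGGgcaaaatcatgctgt
Ebp (chrX:8193513-8193762, minus strand): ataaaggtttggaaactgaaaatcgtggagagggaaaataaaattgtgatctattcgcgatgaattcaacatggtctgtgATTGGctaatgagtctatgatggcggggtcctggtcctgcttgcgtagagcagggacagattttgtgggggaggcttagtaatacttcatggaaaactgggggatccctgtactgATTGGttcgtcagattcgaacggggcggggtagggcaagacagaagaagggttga
Fasn (chr11:120824548-120824797, minus strand): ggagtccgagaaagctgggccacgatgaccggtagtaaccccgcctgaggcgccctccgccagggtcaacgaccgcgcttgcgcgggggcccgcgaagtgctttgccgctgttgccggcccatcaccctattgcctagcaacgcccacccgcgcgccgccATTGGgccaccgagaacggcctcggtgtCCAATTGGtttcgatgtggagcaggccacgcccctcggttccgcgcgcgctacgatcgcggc
Mvd (chr8:122443423-122443672, minus strand): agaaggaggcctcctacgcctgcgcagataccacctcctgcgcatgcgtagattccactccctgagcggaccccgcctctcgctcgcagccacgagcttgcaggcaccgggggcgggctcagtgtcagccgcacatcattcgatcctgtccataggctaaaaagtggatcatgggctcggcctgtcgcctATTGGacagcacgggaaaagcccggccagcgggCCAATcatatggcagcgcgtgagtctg

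The sterol element core was found at position -137 of Hmgcs1, counted from the transcription start, and its NF-Y boxes lay at -237, -176 and -45. In Fasn a box on each strand overlapped at -62 and -59, with a further box at -90. Windows that also take in the first 50 transcribed bases were given for 23 of the 27 genes, and none for Fdps, Fdft1, Sqle and Stard4. CCAAT on either strand occurred in the windows of 20 of the 23 genes (87%), against 42.6% of 9994 tested genes with a window and 37.4% of all 32851 windows. TCACNCCAC occurred in 1 of the 23 (4.35%), against 1.41% of tested genes and 1.24% of windows. The E box CACGTG, a second motif that SREBP1 can bind, occurred in 6 of the 23 (26.1%), against 11.3% of tested genes and 7.15% of windows. GGGCGG, an Sp1 box, occurred in 18 (78.3%), against 65.3% of tested genes and 35.7% of windows. CCAAT boxes stand in the windows of genes that rose and of genes that fell in tumor Tregs, and a match is a run of letters, not a measured binding site.

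Between the tissues, most sterol synthesis genes were higher in tumor than in spleen Tregs, while the enzymes that start and build fatty acid chains, Acaca and Fasn, were lower. In OX40plus Tregs 16 of the 27 genes rose in tumors and 6 fell, where 30.2% of all tested genes rose and 34.3% fell. In OX40minus Tregs 15 rose and 6 fell, against 29.7% and 29.3% of all tested genes. The median log2 fold change of the 27 genes was 0.59 in OX40plus and 0.40 in OX40minus Tregs, and that of all tested genes was -0.13 and -0.03. In both gates the same 13 genes rose and the same 6 fell, and Mvk, Dhcr7 and Srebf2 were called in neither. In bulk samples a smaller share of a cell type and less RNA per cell cannot be told apart, and tissue handling cannot be told apart from tissue.

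**Figure D1:**
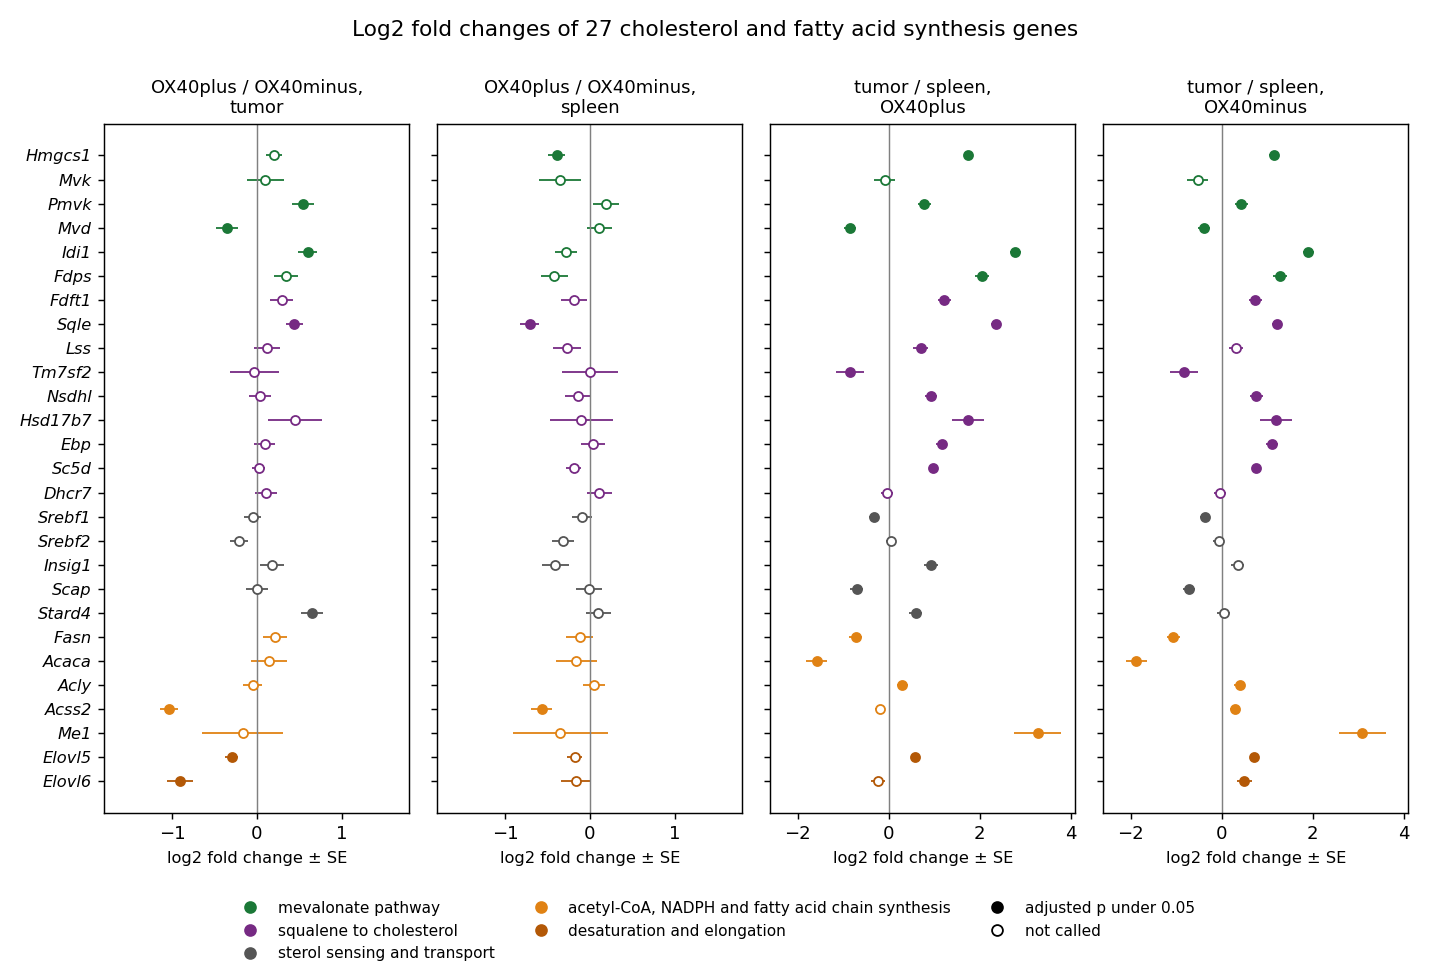
Log2 fold changes (x axis, with SE) of the 27 genes (y axis, grouped by role) for OX40plus over OX40minus Tregs in tumors and in spleens, and for tumor over spleen in each gate; filled points were called. Apart from Me1, the tissue panels reach 2.78 for Idi1 and -1.88 for Acaca. Me1 is drawn furthest to the right in them, but its spleen levels rest on 2 to 6 estimated counts and it has no reliable fold change.

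In the mevalonate pathway the tissue difference was widest for Idi1, the isomerase that turns isopentenyl diphosphate into dimethylallyl diphosphate. Idi1 was at 165.4, 185.7, 195.0 and 248.4 CPM in tumor OX40plus, 128.1, 118.8, 148.5 and 123.1 CPM in tumor OX40minus, 28, 28.7 and 29.1 CPM in spleen OX40plus and 38.4, 33.7 and 32.2 CPM in spleen OX40minus Tregs. No tumor sample came near a spleen sample. The tumor level was 6.86-fold that of the spleen in OX40plus Tregs (log2 2.78 ± 0.12, SE, adjusted p = 2.37e-11) and 3.72-fold in OX40minus Tregs (1.90 ± 0.12, adjusted p = 2.5e-09).

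Fdps makes farnesyl diphosphate, the branch point toward squalene and protein prenylation. It was at 144.1, 169.2, 186.5 and 200.8 CPM in tumor OX40plus, 144.7, 137.1, 151.0 and 119.5 CPM in tumor OX40minus, 44.6, 35.7 and 46.9 CPM in spleen OX40plus and 72.2, 52.1 and 48.0 CPM in spleen OX40minus Tregs. All tumor samples lay above all spleen samples, with a 4.13-fold difference in OX40plus (log2 2.05 ± 0.15, adjusted p = 6.58e-09) and a 2.44-fold difference in OX40minus Tregs (1.28 ± 0.15, adjusted p = 1.95e-06). Fdps shares 1124 exon bases on its own strand with the predicted gene Gm43738, so the split of reads between them is uncertain.

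Hmgcs1, the synthase that condenses acetoacetyl-CoA and acetyl-CoA into HMG-CoA, was at 133.2, 125.8, 158.4 and 141.5 CPM in tumor OX40plus and 122.0, 126.3, 122.1 and 114.4 CPM in tumor OX40minus Tregs. Its spleen levels were 43.5, 41.5 and 40.4 CPM in OX40plus and 58.8, 56.2 and 50.2 CPM in OX40minus Tregs. Every tumor sample was above every spleen sample, 3.33-fold in OX40plus (log2 1.74 ± 0.09, adjusted p = 1.94e-10) and 2.20-fold in OX40minus Tregs (1.14 ± 0.09, adjusted p = 3.58e-08).

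The kinases and the decarboxylase that lie between them did not move together. Pmvk, phosphomevalonate kinase, was at 41.3, 52.8, 49.8 and 48.9 CPM in tumor OX40plus, 29.0, 37.5, 31.8 and 34.4 CPM in tumor OX40minus, 25.3, 26.8 and 32.1 CPM in spleen OX40plus and 28.2, 24.1 and 21.5 CPM in spleen OX40minus Tregs. It rose in tumors in both gates without overlap (log2 0.78 ± 0.14, adjusted p = 0.000119, in OX40plus and 0.43 ± 0.14, adjusted p = 0.0134, in OX40minus Tregs). Mvd, mevalonate diphosphate decarboxylase, which supplies the substrate of Idi1, was at 46.6, 31.5, 33.5 and 40.4 CPM in tumor OX40plus, 47.6, 50.6, 46.9 and 46.2 CPM in tumor OX40minus, 63.1, 61.9 and 78.8 CPM in spleen OX40plus and 72.2, 61.2 and 55.6 CPM in spleen OX40minus Tregs. Mvd fell in tumors, with no overlap in either gate (log2 -0.85 ± 0.14, adjusted p = 6.06e-05, and -0.39 ± 0.14, adjusted p = 0.025). Mvk, mevalonate kinase, had overlapping ranges and was not called (log2 -0.09 ± 0.23 in OX40plus and -0.53 ± 0.23 in OX40minus Tregs).

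Of the genes that make squalene or lead from it to cholesterol, 7 of 9 rose in tumor OX40plus and 6 of 9 in tumor OX40minus Tregs. Of all tested genes, 30.2% and 29.7% rose. Tm7sf2 fell in both gates. Sqle, squalene epoxidase, a rate-limiting enzyme of the late pathway, was at 111.5, 99.3, 121.9 and 101.5 CPM in tumor OX40plus, 77.6, 80.1, 90.2 and 72.6 CPM in tumor OX40minus, 20.6, 21.2 and 21.6 CPM in spleen OX40plus and 37.9, 32.0 and 33.9 CPM in spleen OX40minus Tregs. The 4 groups did not overlap at all. The tumor level was 5.11-fold that of the spleen in OX40plus (log2 2.35 ± 0.11, adjusted p = 2.72e-11) and 2.31-fold in OX40minus Tregs (1.21 ± 0.11, adjusted p = 7.99e-08).

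The other late enzymes showed smaller differences. In OX40plus Tregs the log2 fold change was 1.75 ± 0.35 for Hsd17b7, the sterol ketone reductase, 1.22 ± 0.14 for Fdft1, squalene synthase, and 1.16 ± 0.13 for Ebp, the sterol isomerase. It was 0.97 ± 0.09 for the desaturase Sc5d, 0.93 ± 0.14 for the dehydrogenase Nsdhl and 0.70 ± 0.16 for lanosterol synthase, Lss. In OX40minus Tregs Hsd17b7, Fdft1, Ebp, Sc5d and Nsdhl also rose, by 0.74 to 1.19, and Lss was not called (0.31 ± 0.16, adjusted p = 0.102). Hsd17b7 varied widely within tumors, between 22.8 and 48.5 CPM in OX40plus and between 9.92 and 33.7 CPM in OX40minus Tregs. Fdft1 shares 774 exon bases with Ctsb on the opposite strand, and no source states whether reads were counted by strand.

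Tm7sf2 and Dhcr7 did not rise. Tm7sf2, one of the enzymes with sterol reductase activity at carbon 14, was at 7.19, 6.85, 5.22 and 11.6 CPM in tumor OX40plus, 6.71, 12.5, 7.44 and 5.21 CPM in tumor OX40minus, 12.6, 10.8 and 17.3 CPM in spleen OX40plus and 15.5, 11.4 and 13.5 CPM in spleen OX40minus Tregs. The tissues overlapped in both gates, by 1 tumor sample each, and Tm7sf2 was called lower (log2 -0.85 ± 0.31, adjusted p = 0.024, and -0.82 ± 0.31, adjusted p = 0.0311). Without spleen OX40plus mouse 3 the first call was lost (-0.66, adjusted p = 0.114), and the gene shares 532 exon bases with Vps51 on its own strand. Lbr, which holds the same reductase activity and is not among the 27 genes, rose (log2 1.47 ± 0.09, adjusted p = 9.8e-10, and 1.21 ± 0.09, adjusted p = 1.37e-08). Dhcr7, which makes cholesterol itself from 7-dehydrocholesterol, had a log2 fold change of -0.04 ± 0.14 in both gates and was not called.

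Among the control genes, neither transcription factor was called higher in tumors on the deposited scale. Srebf2 averaged 404.3 ± 62 CPM in tumor OX40plus and 387.2 ± 15.8 CPM in spleen OX40plus Tregs, with a log2 fold change of 0.05 ± 0.12 (adjusted p = 0.733), and it was not called in OX40minus Tregs either (-0.07 ± 0.12, adjusted p = 0.639). With the trend on transcript length taken out, an alternative described below with Fasn, Srebf2 was called higher in tumor OX40plus Tregs (0.30 ± 0.11, adjusted p = 0.0198). Srebf1, whose transcript encodes SREBP1, was lower in tumors in both gates (log2 -0.32 ± 0.11, adjusted p = 0.0219, and -0.36 ± 0.11, adjusted p = 0.0114), and the first call was lost without spleen OX40plus mouse 3 (-0.30, adjusted p = 0.0539). Scap, the escort of SREBP, averaged 94.9 ± 21 and 93.7 ± 12.7 CPM in tumor OX40plus and OX40minus Tregs (SD, n = 4 each), and 151.7 ± 3.51 and 152.9 ± 5.75 CPM in the matching spleen groups (n = 3 each). It fell in both gates, by 0.70 ± 0.14 and 0.72 ± 0.14 on the log2 scale (adjusted p = 0.000448 and 0.00046).

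Insig1, which retains SREBP in the endoplasmic reticulum and is itself a known SREBP target, rose in tumor OX40plus Tregs. Its levels were 58.3, 92.0, 67.6 and 84.9 CPM in tumor OX40plus Tregs, against 39.4, 38.8 and 38.9 CPM in spleen OX40plus Tregs. The log2 fold change was 0.93 ± 0.15 (adjusted p = 4.78e-05), and in OX40minus Tregs it was 0.35 ± 0.15 (adjusted p = 0.0575, not called). Stard4, a carrier that moves cholesterol between membranes, was at 65.4, 60.2, 51.7 and 69.0 CPM in tumor OX40plus, 38.2, 44.9, 35.8 and 38.1 CPM in tumor OX40minus, 46.0, 45.0 and 32.5 CPM in spleen OX40plus and 37.4, 36.1 and 40.7 CPM in spleen OX40minus Tregs. It rose in OX40plus (log2 0.59 ± 0.14, adjusted p = 0.00141), and in OX40minus Tregs the tissues overlapped (0.04 ± 0.14).

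The fatty acid genes split between the tissues. Acaca, acetyl-CoA carboxylase, which commits acetyl-CoA to fatty acids, was at 12.1, 8.97, 17.4 and 10.2 CPM in tumor OX40plus, 12.7, 10.8, 7.84 and 12.1 CPM in tumor OX40minus, 38.8, 40.6 and 27.9 CPM in spleen OX40plus and 38.6, 39.6 and 40 CPM in spleen OX40minus Tregs. All tumor samples were below all spleen samples. Acaca fell by 1.58 ± 0.23 on the log2 scale in OX40plus (adjusted p = 1.34e-05) and by 1.88 ± 0.23 in OX40minus Tregs (adjusted p = 2.7e-06).

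Fasn, the fatty acid synthase that extends malonyl-CoA into palmitate, was at 153.0, 140.7, 147.0 and 97.1 CPM in tumor OX40plus, 91.5, 123.2, 122.3 and 125.2 CPM in tumor OX40minus, 236.7, 233.7 and 191.7 CPM in spleen OX40plus and 230.6, 234.6 and 250.5 CPM in spleen OX40minus Tregs. The tissues did not overlap, and Fasn fell by 0.73 ± 0.15 (adjusted p = 0.000408) in OX40plus and by 1.06 ± 0.15 (adjusted p = 1.4e-05) in OX40minus Tregs on the log2 scale. Fasn and Acaca have the longest transcripts of the 27 genes, 10050 and 9513 bases, and long transcripts were lower in tumors as a class. Over the 572 tested genes similar to Fasn in length the median log2 fold change was -0.79 in OX40plus and -0.61 in OX40minus Tregs. Over the 685 genes similar to Acaca in length it was -0.76 and -0.59. With the trend on length taken out of each sample, an alternative added after the data were seen, Fasn was no longer called in OX40plus (-0.06 ± 0.13, adjusted p = 0.731) and kept its call in OX40minus Tregs (-0.46 ± 0.13, adjusted p = 0.0069). Acaca stayed lower in both (-0.94 ± 0.21, adjusted p = 0.00102, and -1.32 ± 0.21, adjusted p = 5.56e-05).

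**Figure D2:**
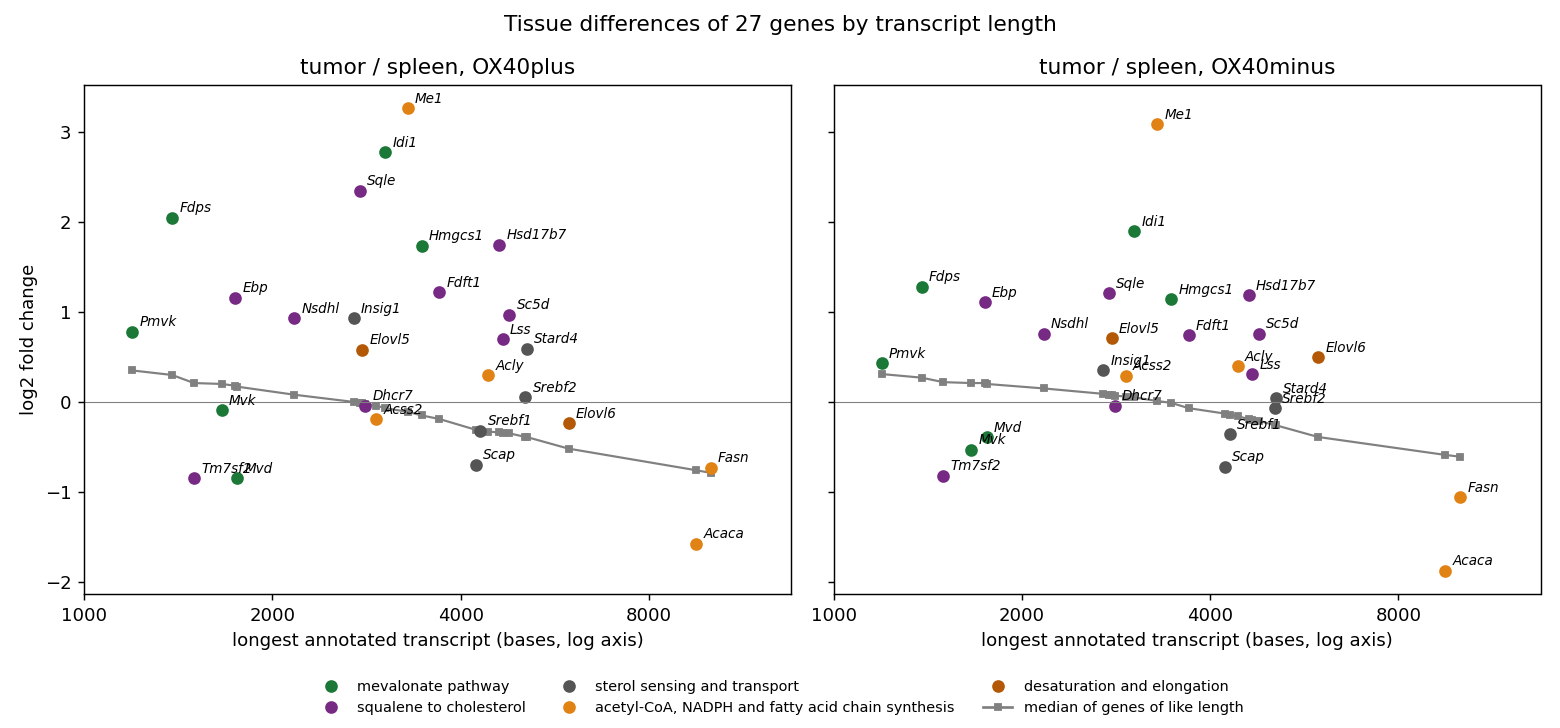
Log2 fold change of tumor over spleen (y axis) against the length of the longest annotated transcript in bases (log x axis) for the 27 genes in OX40plus and OX40minus Tregs; the grey line joins the medians of all tested genes of similar length. Fasn lies near that line in OX40plus Tregs (-0.73 against -0.79), as does Dhcr7 (-0.04 against -0.02), and Acaca, Idi1, Sqle and Hmgcs1 lie away from it.

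Length was related to the tissue difference across all 12536 genes with a known length, with a Spearman rho of -0.23 in OX40plus and -0.21 in OX40minus Tregs. Genes share libraries and are not replicates. The cause of this trend on length was not tested. Among genes of 2501 to 4000 bases the median log2 fold change was -0.08 in OX40plus Tregs. Idi1, Sqle, Hmgcs1 and Fdft1, all in that range, were at 1.22 to 2.78. Dhcr7, also in that range, was at -0.04, against a median of -0.02 for genes of its length. After the trend was taken out, Idi1 (2.76), Sqle (2.29), Hmgcs1 (1.78) and Fdps (1.68) kept their calls in OX40plus Tregs, Srebf1 lost its call in both gates and Pmvk lost its call in OX40minus Tregs (0.10, adjusted p = 0.474). In OX40minus Tregs Acss2 lost its call (0.24, adjusted p = 0.0643), and Lss (0.47, adjusted p = 0.0133) and Mvk (-0.78, adjusted p = 0.00713) gained one.

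The other 5 fatty acid genes were higher in tumors in at least 1 gate, Elovl6 (log2 0.50 ± 0.16, adjusted p = 0.0139) and Acss2 (0.29 ± 0.11, adjusted p = 0.0412) in OX40minus Tregs. Elovl5, which elongates polyunsaturated fatty acids, rose in both (log2 0.58 ± 0.08, adjusted p = 1.17e-05, and 0.71 ± 0.08, adjusted p = 1.94e-06). Acly, ATP citrate lyase, which makes cytosolic acetyl-CoA from citrate, rose by 0.30 ± 0.12 in OX40plus (adjusted p = 0.0412, and 0.24, adjusted p = 0.141, without spleen OX40plus mouse 3) and by 0.40 ± 0.12 in OX40minus Tregs (adjusted p = 0.00889). Me1, cytosolic malic enzyme, a source of NADPH, was near the floor of detection in the spleen. It had 28.1, 44.0, 41.0 and 54.8 estimated counts in tumor OX40plus, 50, 41.0, 86.0 and 30.7 in tumor OX40minus, 6.0, 5.0 and 2.0 in spleen OX40plus and 4.0, 5.0 and 5.0 in spleen OX40minus Tregs. Each tumor sample was above each spleen sample, and Me1 was called higher in tumors in both gates (adjusted p = 4.08e-05 and 9.14e-05).

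Markers of other cells and states moved between the tissues beside these genes. The summed level of 4 B cell genes was 0.32 to 3.7 CPM in tumor OX40plus and 0.396 to 2.09 CPM in tumor OX40minus, against 277.2 to 406.5 CPM in spleen OX40plus and 281.3 to 378.6 CPM in spleen OX40minus Tregs, with Pax5 at or under 3 counts in tumors. The 6 melanoma genes summed to 69.3 to 184.0 CPM in tumor OX40plus and 92.5 to 137.8 CPM in tumor OX40minus, and to 12.6 to 14.9 and 20.5 to 22.4 CPM in the matching spleen groups. Mitf went the other way in OX40minus Tregs, at 0.888 ± 0.766 CPM in tumors against 3.48 ± 1.48 CPM in spleens. Cell cycle genes rose in tumors for 13 of 14 in each gate, where 30.2% of all tested genes rose in OX40plus and 29.7% in OX40minus Tregs. Their sums were 5044 to 5627 CPM in tumor OX40plus against 1530 to 2310 CPM in spleen OX40plus, and 2234 to 2731 CPM in tumor OX40minus against 951.4 to 1184 CPM in spleen OX40minus Tregs. Mki67 went the other way, at 302.5 ± 11.6 CPM in tumor OX40plus against 390.9 ± 162 CPM in spleen OX40plus Tregs. In OX40minus Tregs Mki67 was at 147.8 ± 28.3 CPM in tumors against 217.3 ± 45.4 CPM in spleens. Adipocyte genes, markers of a cell rich in these enzymes, summed to at most 4.39 CPM in tumor OX40plus and 14.7 CPM in tumor OX40minus Tregs, and to at most 1.2 CPM in both spleen groups. The part of these cells and of cell division in the differences above was not tested.

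Within tumors, OX40plus Tregs had more transcript of 4 genes of sterol synthesis or transport than OX40minus Tregs and less of Acss2, the elongases Elovl5 and Elovl6, and Mvd. Of the 27 genes, 4 rose and 4 fell, where 18.5% of all tested genes rose and 19.9% fell. In neither direction were the 27 genes called more often than tested genes at large. The median log2 fold change was 0.10, and -0.08 over all tested genes. The genes that rose were Stard4, Idi1, Pmvk and Sqle, and those that fell were Acss2, Elovl6, Mvd and Elovl5.

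Stard4, Idi1, Pmvk and Sqle, whose levels in each mouse are given above, separated the gates without overlap. Stard4 rose by 1.57-fold in OX40plus Tregs (log2 0.65 ± 0.13, adjusted p = 0.000895) and Idi1 by 1.52-fold (0.60 ± 0.11, adjusted p = 0.000631). Pmvk rose by 1.46-fold (0.54 ± 0.13, adjusted p = 0.00343) and Sqle by 1.35-fold (0.44 ± 0.10, adjusted p = 0.00235). These 4 calls held under every alternative run, the left-out mice included. Fdps (0.34 ± 0.14, adjusted p = 0.0654), Fdft1 (0.29 ± 0.13, adjusted p = 0.0901) and Hmgcs1 (0.20 ± 0.09, adjusted p = 0.0799) were not called.

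Acss2, the cytosolic synthetase that makes acetyl-CoA from acetate, differed most. It was at 29.7, 31.8, 26.9 and 25.8 CPM in tumor OX40plus and at 55.5, 57.5, 58.2 and 63.7 CPM in tumor OX40minus Tregs. Every OX40plus sample was below every OX40minus sample, and Acss2 fell by 1.04 ± 0.11 on the log2 scale, 2.06-fold (adjusted p = 2.27e-06). Its exons overlap those of Gss, Ggt7 and Acss2os on the opposite strand, by 395, 197 and 335 bases.

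Elovl6, which elongates palmitate to stearate, was at 21.6, 23.0, 22.5 and 30.6 CPM in tumor OX40plus, 51.6, 38.2, 43.6 and 50.4 CPM in tumor OX40minus, 31.8, 31.6 and 23.0 CPM in spleen OX40plus and 28.8, 34.1 and 34.0 CPM in spleen OX40minus Tregs. The tumor gates did not overlap, and Elovl6 fell by 0.91 ± 0.15 on the log2 scale, 1.88-fold (adjusted p = 0.000176). Elovl5 also separated the gates, at 268.9 ± 22.1 CPM in OX40plus and 331.0 ± 20.4 CPM in OX40minus Tregs (SD, n = 4 each), a log2 fold change of -0.30 ± 0.08 (adjusted p = 0.00539). Mvd overlapped between the gates, and its call (-0.35 ± 0.13, adjusted p = 0.0442) was lost under 6 other settings, the mouse as a replicate block among them (adjusted p = 0.0823), and with 9 of the 14 samples left out in turn. Fasn (0.21 ± 0.14), Acaca (0.14 ± 0.21) and Acly (-0.05 ± 0.11) were not called. With the length trend taken out, Fasn (0.37 ± 0.12, adjusted p = 0.0241) and Hmgcs1 (0.23 ± 0.08, adjusted p = 0.0394) were called higher in tumor OX40plus Tregs.

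**Figure D3:**
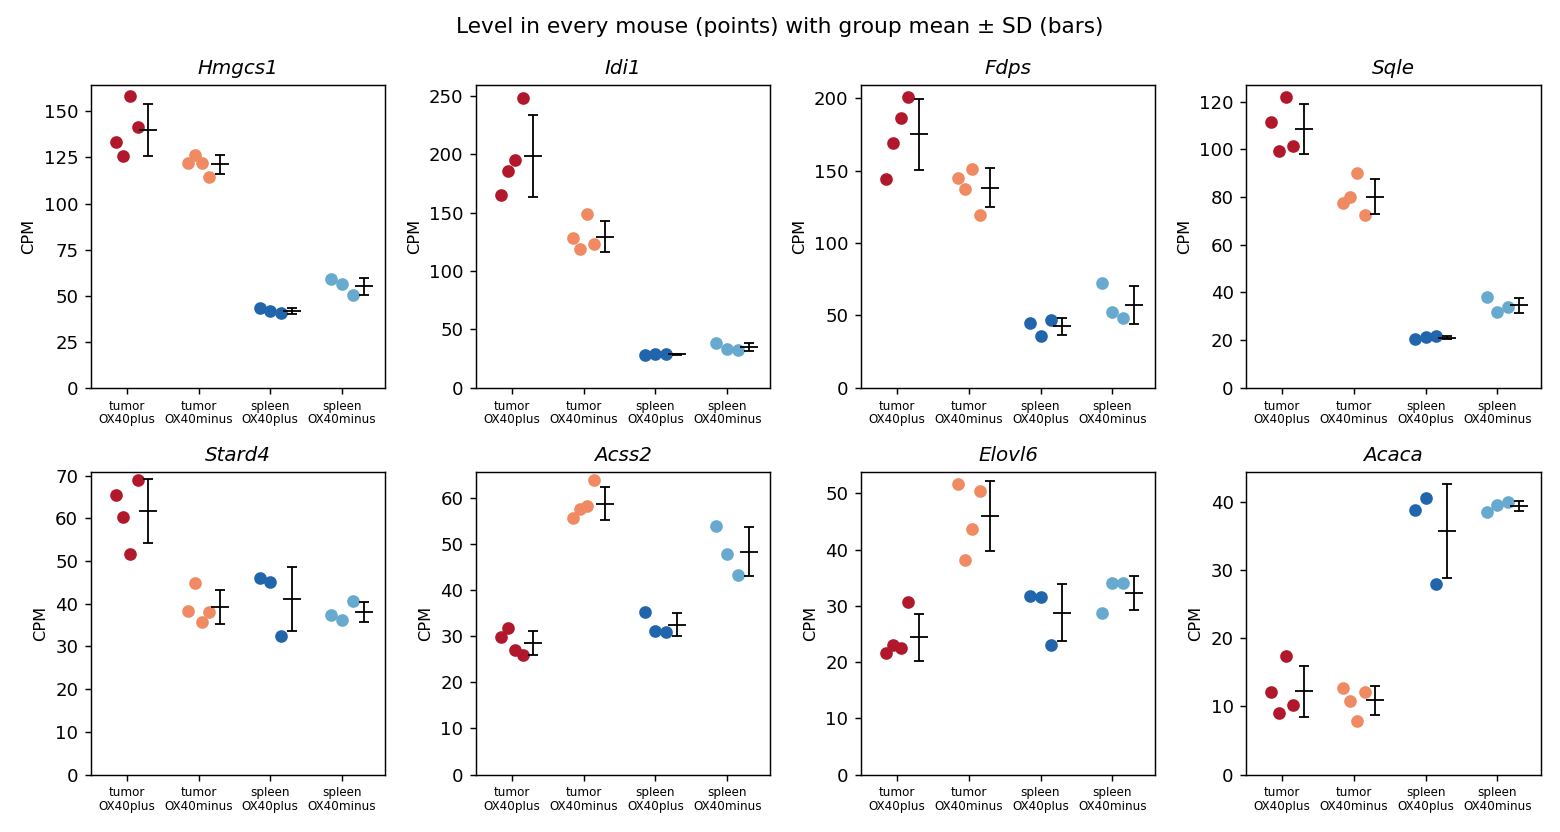
CPM (y axis, from 0) of 8 genes in every mouse (points), with the tumor groups left of the spleen groups and OX40plus left of OX40minus, and with the group mean ± SD (bars, n = 4 for each tumor group and 3 for each spleen group). Sqle separates all 4 groups, Acss2 is lower in OX40plus Tregs of both tissues, and Acaca separates the tissues only.

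In spleens fewer of the 27 genes were called between the gates, and the called sterol genes, Sqle and Hmgcs1, were lower in OX40plus Tregs. None of the 27 genes rose in OX40plus Tregs and 3 fell, Sqle, Acss2 and Hmgcs1, where 4.34% of all tested genes rose and 3.55% fell. The median log2 fold change was -0.17, and 0.01 over all tested genes. Sqle was at 20.6 to 21.6 CPM in spleen OX40plus and 32.0 to 37.9 CPM in spleen OX40minus Tregs and fell by 0.71 ± 0.11 on the log2 scale (adjusted p = 0.000842).

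Acss2 was at 35.3, 31.2 and 30.8 CPM in spleen OX40plus, against 53.9, 47.8 and 43.2 CPM in spleen OX40minus Tregs. The gates did not overlap, and it fell by 0.57 ± 0.12 on the log2 scale (adjusted p = 0.00718), the only one of the 27 genes called lower in OX40plus Tregs of both tissues. Hmgcs1 fell by 0.39 ± 0.10 (adjusted p = 0.0207), and its call was lost with the mouse as a replicate block (adjusted p = 0.0571) and without spleen OX40plus mouse 3 (-0.37, adjusted p = 0.063). Fdps (-0.42 ± 0.16, adjusted p = 0.142), Insig1 (-0.41 ± 0.16, adjusted p = 0.173), Mvk (-0.35 ± 0.25, adjusted p = 0.586), Srebf2 (-0.32 ± 0.13, adjusted p = 0.157) and Idi1 (-0.28 ± 0.13, adjusted p = 0.295) were not called. With only the 2 spleen groups in the fit, Srebf2 and Insig1 were also called, and with the length trend taken out Fdps was (-0.46, adjusted p = 0.0153).

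Macrophage and cell cycle genes differed between the gates of both tissues, and dendritic cell genes between those of tumors. The sum of 10 macrophage or monocyte genes was 45.6 to 55.6 CPM in tumor OX40plus against 163.3 to 230.9 CPM in tumor OX40minus, and 48.4 to 114.7 CPM in spleen OX40plus against 622.1 to 831.9 CPM in spleen OX40minus Tregs, and the 9 that were tested fell in OX40plus Tregs in both, with Mertk at or under 3 counts in tumor OX40plus Tregs. Acss2 was also lower in OX40plus Tregs of both tissues. Its mean was highest in tumor OX40minus Tregs (58.7 CPM, against 48.3 CPM in spleen OX40minus Tregs), and the macrophage sum was highest in spleen OX40minus Tregs. The sum of 6 dendritic cell genes was 37.9 to 67.2 CPM in tumor OX40plus against 134.4 to 193.4 CPM in tumor OX40minus, and 14.6 to 19.2 CPM in spleen OX40plus against 43.1 to 49.1 CPM in spleen OX40minus Tregs. Of these, 4 fell in tumors and none was called by limma in spleens. The gap in the spleen sums lay mostly in Itgax, at 10.4 ± 1.56 CPM in OX40plus against 38.9 ± 3.45 CPM in OX40minus Tregs. Flt3 was level there, at 2.15 ± 0.904 and 2.11 ± 0.459 CPM. Elovl6, like the dendritic cell sum, was highest in tumor OX40minus Tregs. The 6 NK cell genes summed to 4.56 to 8.73 CPM in tumor OX40plus against 10.0 to 19.0 CPM in tumor OX40minus, and to 15.5 to 23.7 CPM in spleen OX40plus against 18.8 to 19.3 CPM in spleen OX40minus Tregs, and 5 of them fell in tumors and none was called in spleens. Cell cycle genes rose in OX40plus Tregs for 14 of 14 in tumors and 12 of 14 in spleens, while Sqle rose in tumors and fell in spleens. Of all tested genes, 18.5% rose and 19.9% fell in OX40plus Tregs of tumors, and 4.34% rose and 3.55% fell in those of spleens. The part of these other cells and of cell division in the OX40 differences was not tested.

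The OX40 difference itself differed between the tissues for 5 of the 27 genes, 4 upward (Sqle, Idi1, Fdps and Hmgcs1) and 1 downward (Elovl6), where 4.49% of all tested genes differed upward and 6.33% downward. For Sqle the log2 fold change was 0.44 in tumors and -0.71 in spleens, a difference of 1.14 ± 0.15 (adjusted p = 0.000249). Idi1 differed by 0.88 ± 0.18 (adjusted p = 0.00465) and Hmgcs1 by 0.60 ± 0.13 (adjusted p = 0.00974), both under every alternative run. Fdps differed by 0.76 ± 0.21 (adjusted p = 0.0303) and Elovl6 by -0.74 ± 0.23 (adjusted p = 0.0491), and both calls were lost with the mouse as a replicate block (adjusted p = 0.0521 and 0.0764). Insig1 (0.58 ± 0.21, adjusted p = 0.0942), Stard4 (0.55 ± 0.20, adjusted p = 0.0853) and Acss2 (-0.47 ± 0.16, adjusted p = 0.073) were not called, though with the length trend taken out Stard4 (0.60, adjusted p = 0.0352) and Acss2 (-0.46, adjusted p = 0.0495) were. The median over the 27 genes was 0.21, and -0.06 over all tested genes.

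**Figure D4:**
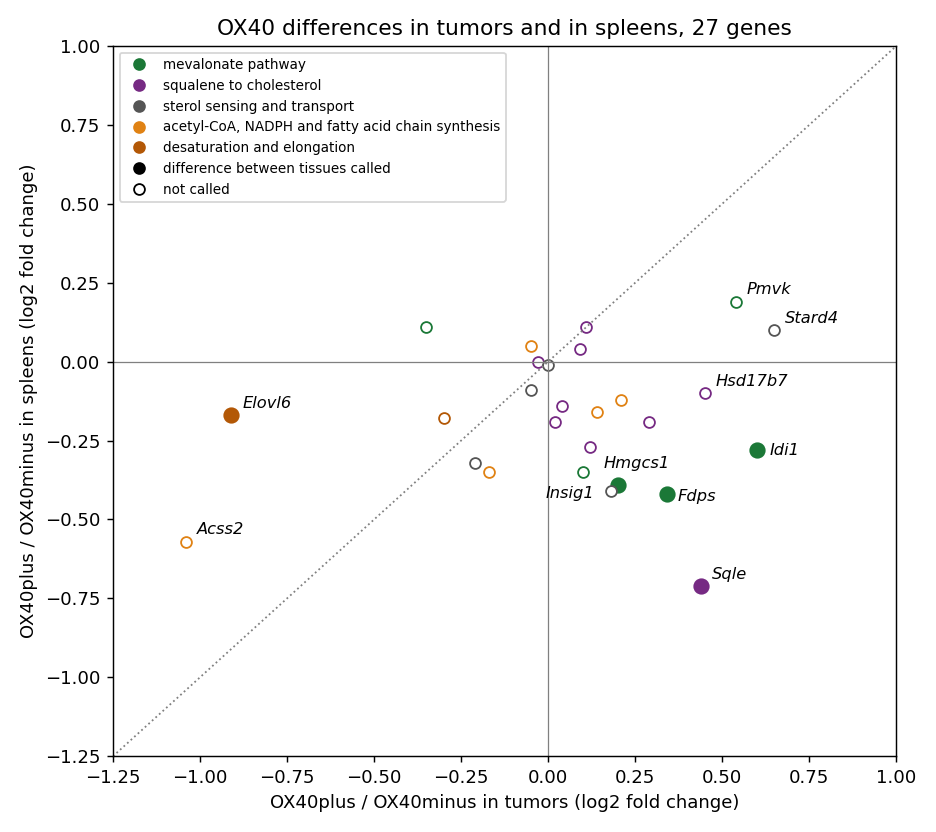
Log2 fold change of OX40plus over OX40minus Tregs in tumors (x axis) and in spleens (y axis) for the 27 genes; filled points were called for the difference between the tissues and the dotted line marks equality. Sqle, Idi1, Fdps and Hmgcs1 lie at the lower right, up in tumors and down in spleens by sign, Elovl6 lies left of the line, and Acss2 is lower in both.

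Seen from the tissue side, the difference of these 4 sterol genes was larger among OX40plus than among OX40minus Tregs: 2.35 and 1.21 for Sqle, 2.78 and 1.90 for Idi1, 2.05 and 1.28 for Fdps and 1.74 and 1.14 for Hmgcs1 on the log2 scale. The tissue and OX40 comparisons share samples, so these are the same values and no further test. For each of the 4 genes the order of group means was tumor OX40plus, tumor OX40minus, spleen OX40minus and spleen OX40plus, with the gates not called apart for Hmgcs1 and Fdps in tumors nor for Idi1 and Fdps in spleens. Acss2 and Elovl6 instead were highest in tumor OX40minus Tregs.

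The spread between mice was moderate. The median coefficient of variation between mice was 16% in tumor OX40plus, 10.7% in tumor OX40minus, 7.74% in spleen OX40plus and 10.1% in spleen OX40minus Tregs. Spleen OX40minus mouse 1 was the highest of its group for 20 of the 27 genes, among them Hmgcs1, Fdps and Sqle, and tumor OX40minus mouse 4 was the lowest of its group for 15.

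Other genes of sterol synthesis, uptake and SREBP control were followed as well, 18 in all. In tumors 7 of them rose in OX40plus Tregs and none fell, against 18.5% and 19.9% of all tested genes, and in spleens none rose and 1 fell, against 4.34% and 3.55%. Tmem97, a membrane protein that regulates cholesterol transport, averaged 96.3 ± 13.6 CPM in tumor OX40plus, 42.1 ± 3.56 CPM in tumor OX40minus, 11.7 ± 0.102 CPM in spleen OX40plus and 8.87 ± 0.896 CPM in spleen OX40minus Tregs. It rose by 1.19 ± 0.13 on the log2 scale in tumor OX40plus over OX40minus Tregs (adjusted p = 3.48e-06). Acat2, which makes acetoacetyl-CoA, rose by 0.43 ± 0.11 (adjusted p = 0.00425).

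Between the tissues 12 of the 18 rose and 4 fell in OX40plus Tregs, and 9 rose and 5 fell in OX40minus Tregs, where all tested genes gave 30.2% and 34.3% in OX40plus and 29.7% and 29.3% in OX40minus Tregs. Tmem97 rose by 3.03 ± 0.14 (adjusted p = 2.49e-11) and 2.24 ± 0.14 (adjusted p = 1.03e-09) on the log2 scale, and Acat2 by 1.68 ± 0.11 (adjusted p = 2.87e-09) and 1.08 ± 0.11 (adjusted p = 6.35e-07). Nfya, a subunit of NF-Y, averaged 8.68 ± 1.28 CPM in tumor OX40plus against 84.6 ± 3.59 CPM in spleen OX40plus Tregs, and fell by 3.29 ± 0.17 (adjusted p = 9.87e-11). The other NF-Y subunits went the opposite way. In tumor against spleen OX40plus Tregs, Nfyb averaged 137.9 ± 21.5 against 66.9 ± 5.04 CPM and Nfyc 111.5 ± 5.27 against 77.3 ± 3.47 CPM. The OX40 difference itself differed between the tissues for 4 of the 18, all upward, where 4.49% of all tested genes differed upward and 6.33% downward. Among the 4 were Tmem97 (0.78 ± 0.19, adjusted p = 0.0159) and Acat2 (0.59 ± 0.16, adjusted p = 0.0268).

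Of 22 further genes of fatty acid synthesis, elongation and activation, 5 rose and 1 fell in tumor OX40plus over OX40minus Tregs, where 18.5% of all tested genes rose and 19.9% fell, and 1 rose and 1 fell in spleens, where 4.34% and 3.55% did. Hacd3, the dehydratase of the elongation cycle, rose in OX40plus Tregs of both tissues, to 397.1 ± 26.2 CPM in tumor OX40plus, against 254.6 ± 13.3 CPM in tumor OX40minus, and to 224.1 ± 20.4 CPM in spleen OX40plus, against 102.3 ± 3.96 CPM in spleen OX40minus Tregs (log2 0.64 ± 0.08 and 1.13 ± 0.09). Hsd17b12, the ketoreductase of the same cycle, rose in tumors, at 118.7 ± 14.7 CPM in tumor OX40plus against 75.3 ± 5.92 CPM in tumor OX40minus Tregs (0.65 ± 0.10, adjusted p = 0.000115), and was not called in spleens (-0.15 ± 0.12). Idh1, a cytosolic source of NADPH, fell in both (-0.42 ± 0.16 and -1.21 ± 0.18). Between the tissues 12 rose and 4 fell in OX40plus (30.2% and 34.3% of all tested genes) and 10 rose and 2 fell in OX40minus Tregs (29.7% and 29.3%), with Acsl5, an acyl-CoA synthetase, higher in tumors by 1.23 ± 0.10 and 0.78 ± 0.10 on the log2 scale.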

How the data were processed

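RNA of sorted Tregs was sequenced in 28 libraries, 2 for each mouse and gate. The submitters' processing notes name build mm10 and the tools kallisto, limma and bcl2fastq 2.19. The deposited values are log2 CPM of the form that limma's voom gives, in which 0.5 is added to each count; the authors' gene summary, scaling and use of strand are stated in no label or header. Effective library sizes were read from the lowest log2 value, which stands for 0 counts, and from them estimated counts and CPM were computed.

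Libraries of one mouse and gate differed by about sampling noise (median chi-square per gene 0.496 to 0.573 in 14 pairs, 0.455 from sampling alone, and 1.402 to 12.719 between mice) and were averaged, leaving 14 samples. limma 3.58.1 in R 4.3.3 was fitted to all 4 groups at once, with a mean-variance trend and no block. Genes needed 0.382 CPM in 3 samples and 15 estimated counts in total. SDs are between mice, and counting error is not the limit at these depths except for Me1.

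Titles number the mice, and the gates of a tissue with the same number were taken to come from the same animal. Their deviations correlated at -0.15 to 0.12 over the 7 pairs, and those of gates with different numbers at -0.23 to 0.23. A fit with the mouse as a replicate block was made beside the main one. No label says whether tumor and spleen numbers name the same animal.

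The members and gene lists were chosen with earlier results of these data known. Values of every mouse are printed for members called for a difference in the OX40 effect between tissues or in both OX40 comparisons, and for the 3 highest and 3 lowest called genes of each comparison; of other lists, up to 4 called genes per comparison with the smallest adjusted p, Nfya among them, were eligible, and some of these are not reported here. Foxp3, Insig1, Itgax, Flt3, Mki67, Mitf, Nfyb and Nfyc were singled out after their values were seen. Lengths and exon overlaps are from GENCODE M21 and promoters from RefSeq. The calling step was tested on simulated data.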

Additional observations from a re-analysis of the deposited data

Results flagged for a closer look

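The OX40 difference on the log2 scale differed between tumors and spleens for 5 genes by the interaction term of limma: Sqle (1.14, adjusted p = 0.000249), Idi1 (0.88, adjusted p = 0.00465), Hmgcs1 (0.60, adjusted p = 0.00974), Fdps (0.76, adjusted p = 0.0303) and Elovl6 (-0.74, adjusted p = 0.0491).

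In the groups of 4 mice, 3 of 54 tests found a sample far from the others of its group, where chance alone gives about 1 in 20. Lss was at 39.7 CPM in tumor OX40plus mouse 2, above the other mice. Srebf2 was at 311.4 CPM in tumor OX40plus mouse 4, below the others. Fasn was at 91.5 CPM in tumor OX40minus mouse 1, also below the others. Groups of 3 mice were not examined in this way.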

How the results depend on the processing

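Of 59 calls on single genes, 45 held under all alternatives run, 14 were lost under at least 1 (4 of them only when a sample was left out), and none turned its direction. The number of the 27 genes called for the difference between the tissues was 5 and fell to 3 with the mouse as a replicate block and to 3 without the mean-variance trend; with 1 sample left out it was 3 to 5. The samples that brought it to 3 were tumor OX40plus mouse 3, tumor OX40minus mouse 4, spleen OX40plus mice 1 and 2 and spleen OX40minus mouse 1. In the spleen OX40 comparison the number was 3 and became 5 with only the 2 groups compared in the fit, where 971 of all tested genes rose and 878 fell, against 544 and 446. The replicate block ended the calls of Mvd in tumors, Hmgcs1 in spleens (log2 -0.39, adjusted p = 0.0571) and Fdps and Elovl6 for the difference between the tissues, and no other call on these genes.

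Hmgcs1 in spleens was also lost without spleen OX40plus mouse 2 or 3 or spleen OX40minus mouse 1 or 2 (adjusted p 0.063 to 0.0899), and with voom weights (0.054). Elovl6 for the difference between the tissues was lost with 11 of 14 samples left out and under 4 settings beside the block (adjusted p 0.0504 to 0.14), and Fdps with 5 (0.0555 to 0.0854). Acly in OX40plus Tregs was lost with 8 samples left out and 3 settings (0.0509 to 0.171). Acss2 between the tissues in OX40minus Tregs was lost under 5 settings and with 5 samples left out (0.0509 to 0.194). Tm7sf2 was lost with 2 samples left out in OX40plus and 5 in OX40minus Tregs, and Mvd between the tissues in OX40minus Tregs with 3. Srebf1 was lost without spleen OX40plus mouse 1 or 3 or with only the groups compared (0.0539 to 0.0649) in OX40plus Tregs, and without spleen OX40minus mouse 1 (0.063) in OX40minus Tregs, where Pmvk was lost without spleen OX40minus mouse 3 (0.0797). Elovl6 between the tissues in OX40minus Tregs was lost without spleen OX40minus mouse 1 (0.42, adjusted p = 0.0672). The cause was not tested.

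Scaling by library totals alone moved the median of all genes between the tissues in OX40plus Tregs to -0.24, against -0.13. Me1 had too few spleen counts for a fold change.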

Other observations

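Genes of sterol efflux, storage and the liver X receptors were mostly lower in tumor OX40plus Tregs: of 17 tested, none rose and 11 fell in OX40plus over OX40minus Tregs, where 18.5% and 19.9% of all tested genes did. In spleens 1 rose and 4 fell, where 4.34% and 3.55% of all tested genes did. Mylip, a ubiquitin ligase that limits lipoprotein uptake, averaged 4.9 ± 2.01 CPM in tumor OX40plus, 13.3 ± 1.58 CPM in tumor OX40minus, 41.9 ± 1.28 CPM in spleen OX40plus and 58.0 ± 5.47 CPM in spleen OX40minus Tregs, and fell by 1.52 ± 0.22 on the log2 scale in tumor OX40plus Tregs (limma adjusted p = 5.83e-05). Gramd1a, a sterol transfer protein, fell by 0.61 ± 0.09 there (adjusted p = 6.4e-05). Gramd1b averaged 31.0 ± 3.09 CPM in tumor OX40plus against 182.7 ± 12.6 CPM in spleen OX40plus, and 37.1 ± 6.08 CPM in tumor OX40minus against 125.0 ± 15 CPM in spleen OX40minus Tregs. Between the tissues 2 rose and 12 fell in OX40plus and 2 rose and 10 fell in OX40minus Tregs, against 30.2% and 34.3%, and 29.7% and 29.3%, of all tested genes. Apoe, Nr1h3 and Lipa, which also fell in OX40plus Tregs of both tissues, are strongly used by macrophages, whose marker genes fell there as well, and the part of macrophages in these values was not tested.

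The isoprenoid branch leads from farnesyl diphosphate to prenylated proteins, ubiquinone and dolichol. Of its 14 genes, 5 rose and 1 fell in tumor OX40plus over OX40minus Tregs, where 18.5% of all tested genes rose and 19.9% fell. None was called in spleens by limma, where 4.34% of all tested genes rose and 3.55% fell. Coq2, of ubiquinone synthesis, rose by 0.59 ± 0.12 (adjusted p = 0.00119), and Rabggta, a subunit of Rab geranylgeranyl transferase, fell by 0.41 ± 0.08 (adjusted p = 0.00125). Between the tissues 4 rose and 5 fell in each gate, close to the shares of all tested genes, of which 30.2% rose and 34.3% fell in OX40plus and 29.7% rose and 29.3% fell in OX40minus Tregs.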
